A study of Mus musculus with 3647 samples.

Results

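The thalamic reticular nucleus (TRN) is a thin shell of inhibitory neurons around the thalamus, and it is crossed by the myelinated fibres that join thalamus and cortex. Oligodendrocytes, the cells that make this myelin, are described here from single nuclei of mouse TRN tissue that were sorted on a DNA dye without the neuronal antibody NeuN. Members were selected on measured values: a nucleus counted when at least 4 of the 6 genes Mag, Mog, Mobp, Cldn11, Cnp and Mal were above 0 and fewer than 3000 genes were above 0. About 290 of the about 690 such nuclei with values met this rule (42.1%; counts of nuclei and genes marked about are rounded to the nearest 10), and the labels hold about 1250 such nuclei. The whole series has 3647 samples, 2653 of them with values. Nuclei were freed over a sucrose gradient, sorted singly, and sequenced by a variant of SMART-seq2, which amplifies whole transcripts; the series also holds nuclei of hippocampus, cortex and striatum and patched neurons. This account uses the unselected TRN nuclei (13 plate names) and, beside them, TRN-adjacent nuclei sorted the same way from 3 plates whose names hold gpe, which are called globus pallidus plates after the region named in the study design. The labels give no genotype, strain, age or animal for these nuclei, so each group counts as 1 sample, plates are not replicate animals, and no p-value is given anywhere.

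An oligodendrocyte wraps its membrane around axons in compact layers, which insulate the axon and let impulses jump between gaps in the sheath. Making the sheath needs a few very abundant structural proteins, large amounts of cholesterol and galactolipids, and iron, which oligodendrocytes store. Precursors pass through a newly formed and a myelin-forming stage before they settle as mature cells, and mature oligodendrocytes are known to differ among themselves in genes such as Opalin, Ptgds, Il33, Klk6 and Apod. A nucleus holds newly made and retained RNA, so these values describe nuclear RNA and not the whole cell. Levels are TPM, transcript shares scaled to a total of 1000000 in each nucleus, which correct for gene length, so levels of different genes can be compared. With a fixed total, an abundant transcript lowers all others, and the read depth behind a value is unknown.

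Members carried markers of oligodendrocytes, but Mag, Mog, Mobp and Cldn11 are rule genes, so their presence follows largely from the selection. Mbp, which was not part of the rule, was above 0 in all members, though low in some, such as 98.9 TPM in a member of plate X012116TRNp8. Of the 6 rule genes, 88.7% of members had all 6, 27 members had 5 and 6 members had 4. Just outside the rule lay 14 unselected nuclei with 3 rule genes, and 14 nuclei with 4 or more rule genes but 3055 to 5647 detected genes, 8 of which had 3 or more of 7 neuronal markers. The member closest to the limit had 2906 detected genes, and the lowest had 1503. The median was 1986 detected genes (25th to 75th percentile 1826 to 2214), against 4392 in neurons of the same plates.

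Markers of other cell types were low but not absent. The 7 neuronal markers summed to a mean of 337.9 TPM (SD 950.1 over about 290 members; median 3.51), against 4781 TPM in neurons, and plate means ran from 1.38 to 639.8 TPM. Snap25, a synaptic fusion protein, was above 0 in 29.8% of members at a mean of 213.6 TPM, and Nrgn was at 0 in all. In 15 members 3 or more neuronal markers were above 0, in 5 members 3 or more astrocyte markers, in 1 member 3 or more microglial markers and in none 3 or more precursor markers. The 8 astrocyte markers summed to a mean of 223.6 TPM, with plate means of 4.01 to 937.2 TPM and a median over members of 0. The 7 microglial markers summed to 56.3 TPM, the 8 endothelial and mural markers to 12.9 TPM (Pecam1, Tek and Pdgfrb at 0 in all members) and the 5 ependymal markers to 9 TPM (Tmem212 and Rarres2 at 0 in all). No doublet caller was run.

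Members made up 42.1% of unselected TRN nuclei with values (exact 95% binomial interval 38.4% to 45.8%, counting error only). The share was 24.6% on the lowest plate and 72% on the highest. On the 4 plates whose names begin with X083116 it was 62.9% (about 140 of 220, interval 56.2% to 69.3%), and on the other 9 plate names 32.3% (about 150 of 470, interval 28.1% to 36.8%). Single plates gave 37 of 60, 37 of 58, 36 of 50 and 29 of 53 nuclei under X083116, and 14 of 43, 14 of 47, 21 of 62, 14 of 46, 22 of 62, 27 of 70, 14 of 57, 4 of 14 and 23 of 72 under the other names. The shares ran from 54.7% to 72% on the former and from 24.6% to 38.6% on the latter, with no overlap. On the globus pallidus plates 43.7% of nuclei met the same rule (83 of 190, interval 36.5% to 51.1%). How the nuclei with values were picked from those in the labels is not stated, so these are shares of nuclei with values only.

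Of the gene lists used here, the structural genes of myelin had the highest summed TPM. Single transcripts named below, such as Rn45s and Trf, had higher means than Mbp. Mbp, which binds the inner membrane faces together, had a mean of 12918 TPM (SD 5095 over about 290 nuclei), and its plate means were 10622 at the lowest, 13045 at the median and 15018 at the highest of 12 plates with 10 or more members. Cnp, an enzyme that keeps cytoplasmic channels open in the sheath, had 8122 TPM (SD 3937). Cldn11, the claudin of myelin tight junctions, had 5933 TPM (SD 3425). The neighbouring genes in this order, Cnp with plate means of 6267 to 10136 and Cldn11 with 4903 to 7830.1, overlapped. Mag, an adhesion protein on the axon side, had 4133 TPM (SD 2566), and Mog, on the outer surface, had 3098 TPM (SD 2169.6). Mobp had 2731 TPM (SD 2058) and Mal, a lipid-raft protein, 2719 TPM (SD 2177), and the plate means of these 4 overlapped as well. The 15 structural genes listed summed to 90931 TPM (SD 22252), or 9.09% of all transcripts, with plate sums from 74303 to 107837 TPM. Of the 15, 14 were above 0 in at least 20% of members and 9 in at least 90%, while Cd59a was found in 6.85%.

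**Figure D1:**
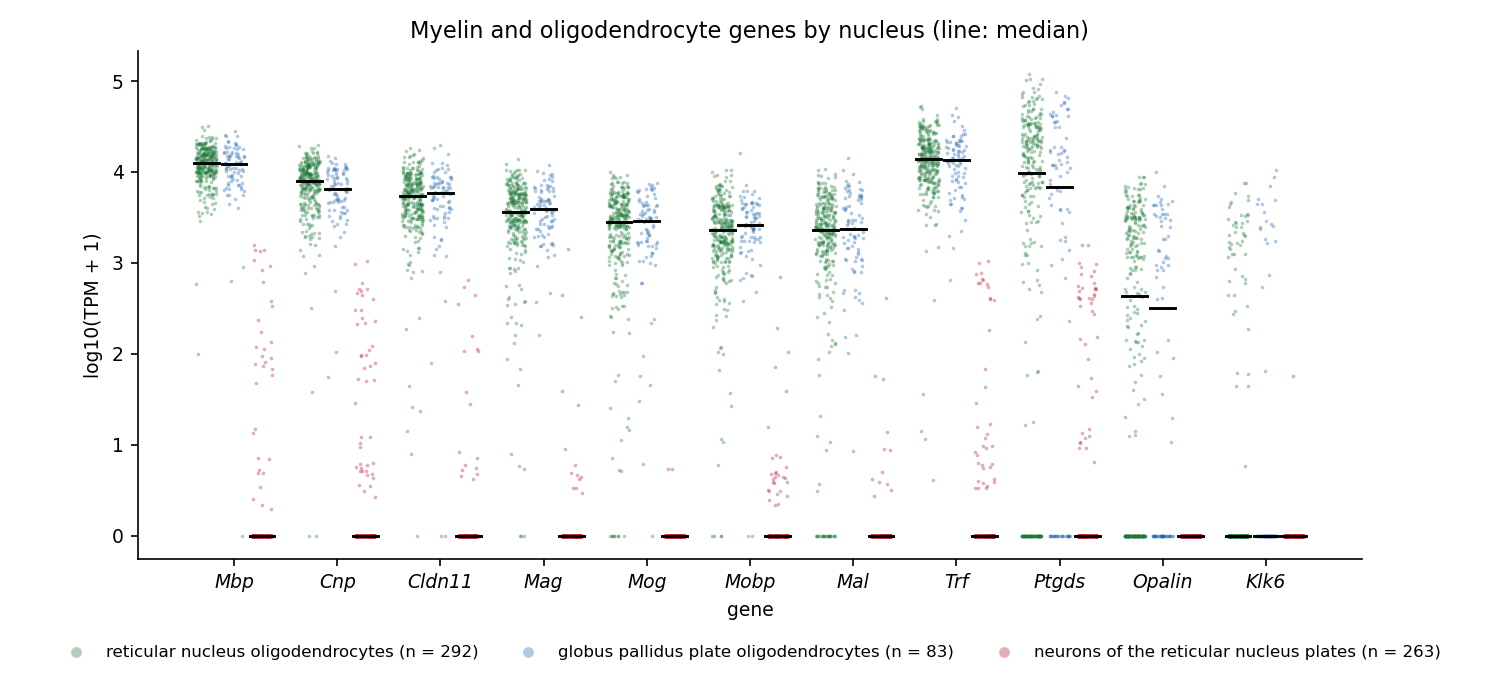
Log10 of TPM plus 1 of 11 genes in each nucleus of 3 sets: about 290 oligodendrocytes of the reticular nucleus, 83 of the globus pallidus plates and about 260 neurons of the reticular nucleus plates (points: nuclei, lines: medians). The oligodendrocyte sets overlie each other, the neurons sit mostly at 0, and Ptgds, Opalin and Klk6 split both oligodendrocyte sets into nuclei with and without the transcript.

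Outside the structural proteins, abundant transcripts by median were Rn45s, the precursor of ribosomal RNA (median 62484 TPM), Trf (14069.7), Fth1 (10338), Ptgds (9729.8), Malat1 (9436), Tubb4a (7499.6), Sept4 (4784), Aplp1 (4445), Tuba1a (3671) and Neat1 (3670.1). Mbp (12667), Cnp (8022), Cldn11 (5439) and Mag (3650.2) were also among the 15 genes with the highest medians. Ptgds, which makes prostaglandin D2, is the one among them that was at 0 in many members: it was found in 75.3%.

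Genes of axon contact and glial junctions were lower than the sheath proteins. The highest were Hapln2, a link protein of the matrix at nodes of Ranvier (mean 1494 TPM, SD 1526), the connexin Gjc3 (707.2, SD 723.6), the junction protein Jam3 (673.3, SD 1035.995) and the connexin Gjb1 (641.5, SD 871.5). Of 18 listed genes, 12 were above 0 in at least 20% of members and 4 in at least 90%.

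Enzymes of myelin lipids were led by Enpp2 (autotaxin, which makes lysophosphatidic acid, mean 2823 TPM, SD 1884), Cers2 (very long chain ceramide synthesis, 1278, SD 1433), Degs1 (the last step to ceramide, 850.2, SD 1096.9) and Aspa (aspartoacylase, which frees acetate from N-acetylaspartate, 828.2, SD 1237.5). Ugt8a, which makes galactosylceramide, had 752.5 TPM (SD 876.2) and was found in 80.1%. Of 15 listed genes measured, 12 were found in at least 20% of members. The cholesterol pathway was lower: its 18 genes summed to 1672 TPM (SD 1492), against 8657 TPM (SD 3675) for the lipid list, and 7 of 18 were found in at least 20% of members. Its highest genes were Fdps (327.5 TPM, found in 28.1%), Hmgcs1 (214.4, 33.2%), Sc5d (202.7, 29.5%) and Fdft1 (186.8, 27.7%).

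Iron handling and metabolic support took 4.7% of all transcripts (sum 46965 TPM, SD 15773). Trf, transferrin, had a mean of 15700.3 TPM (SD 9333) with plate means of 10004 at the lowest, 16385 at the median and 28499 at the highest. Fth1, the heavy chain of the iron store ferritin, had 10898 TPM (SD 6256), with Qdpr (pteridine metabolism) at 4289 (SD 3683) and Apoe (lipid carrier) at 3518 (SD 4507). Tfrc, the transferrin receptor, had 31.1 TPM in 10.6% of members, and the iron exporter Slc40a1 was at 0 in all. The lactate transporter Slc16a1 had 89.3 TPM (29.1% of members), and the lactate dehydrogenase genes Ldhb and Ldha had 379.3 and 137.95 TPM.

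Among genes of cytoskeleton and processes, the tubulin Tubb4a (7872 TPM, SD 4277), the septin Sept4 (4952, SD 3243), the chaperone Cryab (2147, SD 2059.7) and the membrane-curving protein Bin1 (1549.9, SD 1364) were highest, and 17 of 18 were found in at least 20% of members. Of channels and receptors, Gpr37 (977.3 TPM, SD 994.9), the sphingosine phosphate receptor S1pr5 (486.7, SD 721.9), the glutamate receptor Grm3 (322.4, SD 618.4) and the potassium channel Kcna1 (221.6, SD 302.4) were highest. Kcnj10, the inward-rectifier potassium channel, had 181.7 TPM (59.2% of members). None of the 20 listed channel and receptor genes was found in 90% of members.

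Transcription factors of the lineage were led by Olig1 (1534 TPM, SD 1427, found in 80.1%), Zfp488 (1053.5, SD 2230.2), Zfp536 (532.2, SD 834.6) and Sox8 (369.6, SD 459.6). Sox10, which maintains the lineage, had 349.9 TPM (75.3% of members), Myrf, which drives myelin genes, 139.1 TPM (83.2%) and Olig2 134.01 TPM (31.5%). The precursor factor Nkx2-2 had 17.1 TPM and Myt1 0.0745 TPM. Zfp488 was found in every member, but its mean was 1114.9 TPM in neurons, so in these data it did not mark the class. Sox10 in neurons had 2.13 TPM and Olig1 4.94 TPM.

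Of long noncoding RNAs, Malat1 (10653 TPM, SD 5564), found in nuclear speckles, and Neat1 (5065, SD 4637), found in paraspeckles, were highest. Sox2ot (499.9, SD 702.3) and Xist (481.002, SD 509.7) followed. Mirg was at 0 in all members. Malat1 stood at 11064 TPM in neurons, close to its level here, whereas Neat1 stood at 3.42 TPM there. Meg3 and Snhg11 went the other way: Meg3 had 10 TPM in members and 7683 in neurons, and Snhg11 had 28.2 and 7039.9 TPM.

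Genes of the precursor stage were near 0 and those of late stages high. The rule asked for mature myelin genes, 4 of which (Mag, Mog, Mobp and Mal) are in the myelin-forming list, so this order is a description of the selected nuclei. The 12 precursor genes summed to a mean of 36.6 TPM (SD 183.1, median 0), none was found in 20% of members, and Cacng4, Tmem100 and C1ql1 were at 0 in all. The highest of them were Ptprz1 (8.2 TPM), Gpr17 (6.83), Bmp4 (5.56) and Matn4 (5.04). The 12 genes of newly formed oligodendrocytes summed to 345.5 TPM (SD 701.6), led by Enpp6 (162.4 TPM, found in 25%), Rnf122 (50.8), Tcf7l2 (49.1) and Fyn (31.5), with Casr at 0. The 12 myelin-forming genes summed to 59289 TPM (SD 17405), with Mag, Mog and Mobp at the levels above. The 20 late mature genes summed to 47230.3 TPM (SD 21608), led by Ptgds (17464, SD 21793), Trf, Apod (3439.7, SD 3145) and Car2 (2480.5, SD 2199). Some late genes were nearly silent, Hopx at 0.428 TPM and Cdkn1c at 0.253 TPM.

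Among 29 genes whose human versions cause leukodystrophies, diseases of white matter, 12 were found in at least 20% of members. Among the highest were Tubb4a, Ndrg1 (1252 TPM, SD 1358) and Aspa. All 5 measured subunits of the translation factor eIF2B were low, from 26.8 TPM for Eif2b5 to 75.8 TPM for Eif2b2, and were found in 6.85% to 11.3% of members. Of 19 stress and immune genes, 3 were found in at least 20% of members. Il33, a nuclear cytokine, had 1140.2 TPM (SD 1473), Hspa5 309.7 (SD 769.8), Atf4 166.8 (SD 481.3) and H2-K1 122.2 (SD 1061.6). The immediate early genes were near 0, with Fos at 5.2, Egr1 at 3.26 and Fosb at 0.0113 TPM, and the antigen presentation gene Cd74 was at 0 in all members.

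The spread among members differed from gene to gene. Of 23420 genes in the table, 3139 were above 0 in at least 20% of members, about 170 in at least 90% and 6576 in none. Among the about 170, the coefficient of variation (SD over mean) was low for Mbp (0.394), Rn45s (0.418), Cnp (0.485), Malat1 (0.522), Tubb4a (0.543), Fth1 (0.574) and Cldn11 (0.577). It was higher for the sheath genes Mag (0.621), Mog (0.70), Mobp (0.754) and Mal (0.801). Cnp, Cldn11 and these 4 are the rule genes, whose spread the selection can narrow. Some genes of low mean had a coefficient in the range of these sheath genes, such as Cd300a (16.8 TPM, 0.657) and Slc7a2 (6.24 TPM, 0.756). Among genes with a symbol other than a clone name (Rik or Gm), it was highest for Zfp11 (4.18), Zfp937 (3.63), Zfp113 (3.59), Bpnt1, Tbc1d24 (both 3.57), Nap1l1 (3.41), Rnf168 (3.3) and Tyms (3.14), all of which had medians between 6.56 TPM (Tbc1d24) and 17.4 TPM (Bpnt1).

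**Figure D2:**
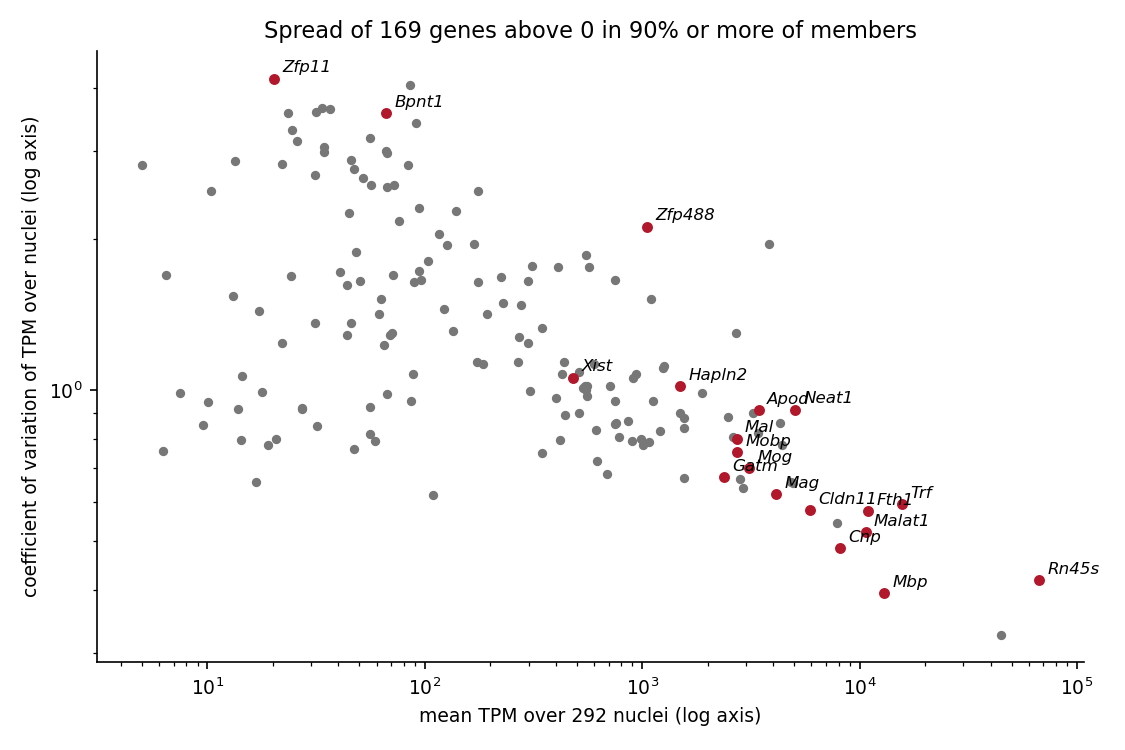
Coefficient of variation of TPM over about 290 members against mean TPM, both on log axes, for the about 170 genes above 0 in 90% or more of members (points: genes, red: genes named). Among the genes named the spread runs from 4.18 for Zfp11 to 0.394 for Mbp, and Zfp488 lies above genes of similar mean. Some genes of low mean also have a low spread, for example Cd300a (16.8 TPM, 0.657).

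Among genes found in 20% to 80% of members with a mean of at least 50 TPM, the SD of log2(TPM + 1) was highest for Ptgds, and the other 14 genes of the highest 15 were Apoe, Sec11c, Sccpdh, Il33, Rhog, Opalin, Gsn, Ftl1, Cd9, Fkbp1a, Stmn1, Sepp1, Cox4i1 and Tpt1. Ptgds had a median of 9729.8 TPM, a 25th percentile of 16.5, a 75th percentile of 25192 and a highest value of 120161 TPM. Its gene lies at chr2:25466709-25470110 (GRCm38.p6, RefSeq), Opalin at chr19:41061959-41077113 and Klk6 at chr7:43824438-43832027. The plate means of Ptgds were 8762 at the lowest, 16931 at the median and 32422 at the highest. Opalin, a sialylated glycoprotein of the inner myelin loop, had a median of 435.5 TPM, a 25th percentile of 0 and a 75th percentile of 2852, and plate means of 580.6, 1387 and 2470.2. Every plate held nuclei with and without Ptgds and nuclei with and without Opalin, so spread lay within plates. The plate means differed as well, and how the spread divides within and between plates was not tested. In neurons of the same plates Ptgds had a mean of 64.7 TPM (16.3% of nuclei) and Opalin was listed at 0 in all.

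Several of the variable genes varied together. Each gene was correlated with Ptgds across members within each of the 12 plates (14 to 37 members a plate), and the median of the 12 Spearman coefficients is given as rho. Ptgds was taken as the anchor because its spread was highest, and the genes below were ranked after their values were seen. Over 1941 genes correlated in this way the median rho was -0.03, with 16 genes at 0.3 or above and 33 at -0.3 or below. The 12 highest were Apoe (0.56), Il33 (0.54), the glutathione transferase Gstp1 (0.53), Opalin (0.51), the adhesion protein Kirrel3 (0.49), the tetraspanin Cd9 (0.46), the adhesion protein Mcam (0.43), the Ras regulator Rasal1 (0.42), the kinesin Kif21b (0.40), Plekha1 (0.35), Prickle1 (0.34) and the fatty acid desaturase Fads1 (0.33). The 12 lowest were the selenium carrier Sepp1 (-0.56), Hapln2 (-0.54), the choline phosphodiesterase Enpp6 (-0.50), the lipocalin Apod (-0.50), the calcium-binding S100b (-0.47), the actin-severing Gsn (-0.47), the septin-binding Anln (-0.45), the lipid droplet protein Plin3 (-0.45), Serpinb1a (-0.44), Trf (-0.44), the sterol hydroxylase Cyp27a1 (-0.39) and Ctnna2 (-0.39). Klk6, a secreted protease found in 17.8% of members and so below the limit for this ranking, had -0.48. Coefficients for genes at 0 in most nuclei rest largely on presence and absence.

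For Ptgds and Il33 the coefficient was positive on 12 of 12 plates (0.20 to 0.77), as it was for Ptgds and Opalin (0.12 to 0.70). For Ptgds and Trf it was negative on 12 of 12 (-0.69 to -0.26), and likewise for Klk6 and Opalin (median -0.43, range -0.66 to -0.24). Of the structural genes, 8 of 14 had a positive and 6 a negative rho with Ptgds. The median rho over all 1941 genes was -0.03, near 0, so these counts do not set the list apart. Besides Opalin, Cd9 (0.46) and Tspan2 (0.28) were positive on 12 of 12 plates, Mal (0.25) on 11 and Cnp (0.24) on 10. Pmp22 (-0.38) was negative on 12 of 12 and Mobp (-0.27) on 9. The coefficient with Ptgds was -0.06 for Mbp, -0.05 for Mog and -0.09 for Mag, and the pairs Mbp with Mobp (-0.06) and Mag with Mog (0.10) had both signs among plates. Of 15 late mature genes, 4 had a positive and 11 a negative rho with Ptgds. Of these 4, only Il33 (0.54) was positive on 12 of 12 plates. Jph4 (0.18), Car2 (0.12) and Slc48a1 (0.08) had both signs among plates. In its coefficient with Ptgds, Il33 thus had the opposite sign to genes of the same list such as Hapln2 (-0.54). Paired directly, Il33 had a rho of -0.24 with Hapln2 and -0.22 with Trf. The pair with Trf had both signs among plates (-0.46 to 0.22) and a median of -0.06 in the globus pallidus plates. Members high in Ptgds had fewer detected genes (rho -0.34, range -0.58 to 0.07). With detected genes held constant the coefficients were 0.53 for Il33, 0.39 for Opalin, -0.50 for Hapln2, -0.43 for Trf and -0.42 for Klk6. Ptgds had a rho of -0.18 with the summed astrocyte markers, -0.18 with microglial, -0.13 with endothelial and mural and -0.01 with neuronal markers.

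**Figure D3:**
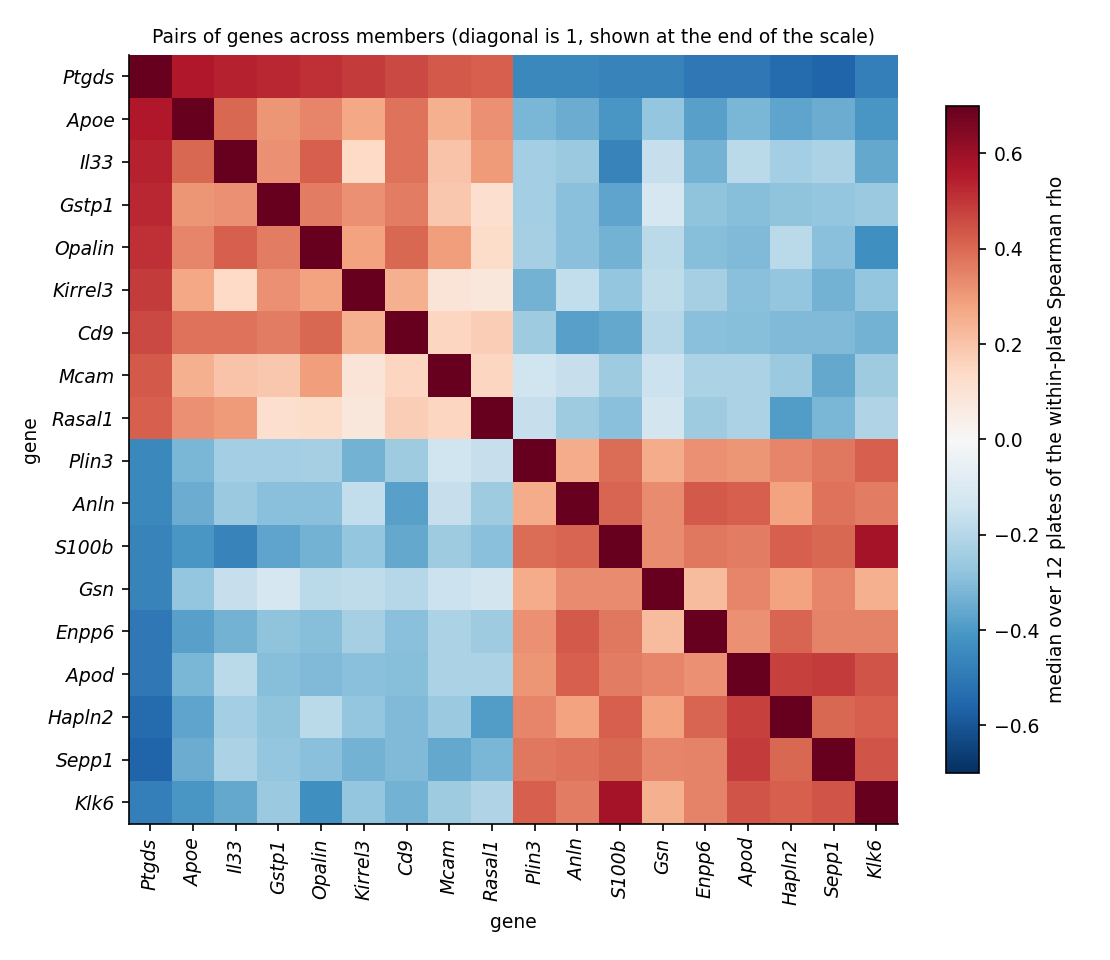
Median over 12 plates of the within-plate Spearman coefficient for pairs among Ptgds, 8 genes ranked with it, 8 ranked against it and Klk6 (red positive, blue negative). Genes ranked with Ptgds form a red block and those ranked against it a second, with blue between them, for example 0.51 for Opalin and -0.54 for Hapln2 with Ptgds. The genes were chosen by their coefficient with Ptgds in these nuclei, so the blocks follow in part from that choice. Within the blocks, pairs without Ptgds run from 0.08 (Kirrel3 with Rasal1) to 0.58 (S100b with Klk6).

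Counting the same members by presence of the transcripts restates these coefficients and adds no separate support. Klk6 was above 0 in 52 members and at 0 in 240. Opalin was found in 17.3% of the former and 72.9% of the latter, Ptgds in 26.9% and 85.8%, and Il33 in 21.2% and 70%. Members with Klk6 had more detected genes (median 2272 against 1940.5), and the part of detection in this split was not tested. Nuclei of the globus pallidus plates, which played no part in the ranking, were split in the same direction: Klk6 was found in 19 of 83, Opalin in 0% of those 19 and in 76.6% of the other 64, and Ptgds in 26.3% and 85.9%. These counts pool 3 plates, whose mean Klk6 ran from 182.6 to 1926 TPM. Here too, nuclei with Klk6 had more detected genes (median 2253 against 2051), and the part of plate and detection was not tested. Within the 3 globus pallidus plates all 12 genes ranked with Ptgds had a positive median coefficient with it and all 12 ranked against it a negative one, where 62.2% of all 1941 genes had the same sign in both tissues. Only 16 of the 1941 reached 0.3 in the TRN and 33 reached -0.3. The 24 were thus extremes, and the 62.2% is no like-for-like baseline for them. Opalin had 0.70 there (0.50 to 0.86), Il33 0.48, Sepp1 -0.64, Apod -0.66 and Trf -0.51.

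Promoter sequences of 4 of these genes are shown because the first 2 run with Ptgds and the last 2 against it. Each line gives the 250 bases before the annotated start of transcription, 5′ to 3′ on the gene's strand, from RefSeq on GRCm38.p6, and capitals mark matches to ACAAAG or ACAATG on either strand, core hexamers of SOX factors. The windows are chr19:41077114-41077363 (minus strand) for Opalin, chr19:29924863-29925112 (plus) for Il33, chr3:88027512-88027761 (minus) for Hapln2 and chr16:31314809-31315058 (minus) for Apod.
Opalin: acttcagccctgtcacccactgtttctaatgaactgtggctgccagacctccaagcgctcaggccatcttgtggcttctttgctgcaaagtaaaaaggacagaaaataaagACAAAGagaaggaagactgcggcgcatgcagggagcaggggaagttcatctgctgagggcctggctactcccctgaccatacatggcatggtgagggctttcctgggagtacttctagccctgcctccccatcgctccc
Il33: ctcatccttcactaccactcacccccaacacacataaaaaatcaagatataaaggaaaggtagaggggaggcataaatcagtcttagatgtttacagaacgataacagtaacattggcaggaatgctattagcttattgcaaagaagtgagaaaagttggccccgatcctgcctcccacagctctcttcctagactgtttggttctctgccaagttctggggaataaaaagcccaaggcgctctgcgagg
Hapln2: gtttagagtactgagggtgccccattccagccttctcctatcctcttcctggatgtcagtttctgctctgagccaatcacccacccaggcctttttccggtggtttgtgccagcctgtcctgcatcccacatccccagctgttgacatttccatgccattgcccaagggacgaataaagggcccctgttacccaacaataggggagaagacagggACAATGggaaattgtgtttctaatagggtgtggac
Apod: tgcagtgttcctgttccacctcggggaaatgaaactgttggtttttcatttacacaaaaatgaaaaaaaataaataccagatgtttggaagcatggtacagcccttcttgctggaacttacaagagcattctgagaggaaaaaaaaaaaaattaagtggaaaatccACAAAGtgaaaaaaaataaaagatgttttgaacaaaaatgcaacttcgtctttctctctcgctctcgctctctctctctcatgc
Opalin, Hapln2 and Apod held 1 match each, and Il33 held none. The hexamers occurred in 25.5% of all 27025 promoters of this length. They occurred in 3 of the 9 promoters found for Ptgds and the genes ranked with it, in 3 of the 9 found for genes ranked against it, and in 6 of the 13 found for the structural list. On this measure the counts for genes ranked with and against Ptgds were equal, but 9 windows a side are too few to compare them. The motif CTGGNAC was in 2 and 3 of these 9, and CANNTG in 4 and 7, against 16% and 66% of all promoters. N stands for any base, and a match is a description of letters only.

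Against neurons of the same plates, defined by at least 4 of 7 neuronal markers and fewer than 3 of the rule genes, 10.99% of 8344 genes had a mean at least 2-fold higher in members (about 920 genes) and 37.5% at least 2-fold lower (3131 genes). With the difference of mean log2 values in place of the ratio of means, these shares were 6.22% and 62.72%. The fold is the ratio of mean TPM plus 1, and genes had to be above 0 in at least 20% of either set. The rule genes and neuronal markers chose the sets, so their differences are given only as a description. The median log2 ratio over all genes tested was -0.60, and neurons had more detected genes. Plate means did not overlap for 37.4% of the higher and 28.4% of the lower genes. Of the 15 structural genes, 14 were past 2-fold higher and 1, Cd59a, lower, with a list median of 8.20. Of 14 lipid genes tested, 11 were higher and none lower (median 3.98). Of 17 iron and metabolic genes, 11 were higher and 2 lower (median 3.89), and of 11 cholesterol genes 6 were higher and 1 lower (median 1.14). Channels and receptors were mixed, with 8 of 19 higher and 7 lower, and of 14 long noncoding RNAs 2 were higher and 7 lower. Among the 12 genes with the largest ratios and separate plate means, clone names left out here and in the comparisons below, were Mog (11.55), Opalin, Neat1 (10.16), Mal (9.75), Cmtm5 (9.65), Cd82 (9.17), Cldn11 (9.11), S100a16 (9.10), Apod (8.97), Gatm (8.97) and Aspa (8.96). Opalin was listed at 0 in all neurons, so its place in this order rests on the 1 TPM added to each mean and no ratio is given for it. The ratio of Mog, a rule gene that was at 0 in most neurons, also rests largely on this 1 TPM. Gatm, the first enzyme of creatine synthesis, had a mean of 2369.5 TPM (SD 1589.5) in 98.6% of members and 3.74 TPM in neurons. In the other direction stood Meg3 (-9.44), Coro6 (-8.31), Matk (-8.05), Kcnn2 (-8.04), Snhg11 (-7.92), Kcnip1 (-7.91), Flt3 (-7.83), Ecel1 (-7.80), Npy (-7.75), Trh (-7.53), Trank1 (-7.49) and Epha10 (-7.21). Npy, a neuropeptide, had plate means of 0 to 9.37 TPM in members and of 225.3 to 1933 TPM in neurons.

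Neurons also held some Mbp RNA, the source of which was not tested. Mbp was above 0 in 12.9% of them at a mean of 42.9 TPM, below the 10622 TPM of the lowest member plate.

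**Figure D4:**
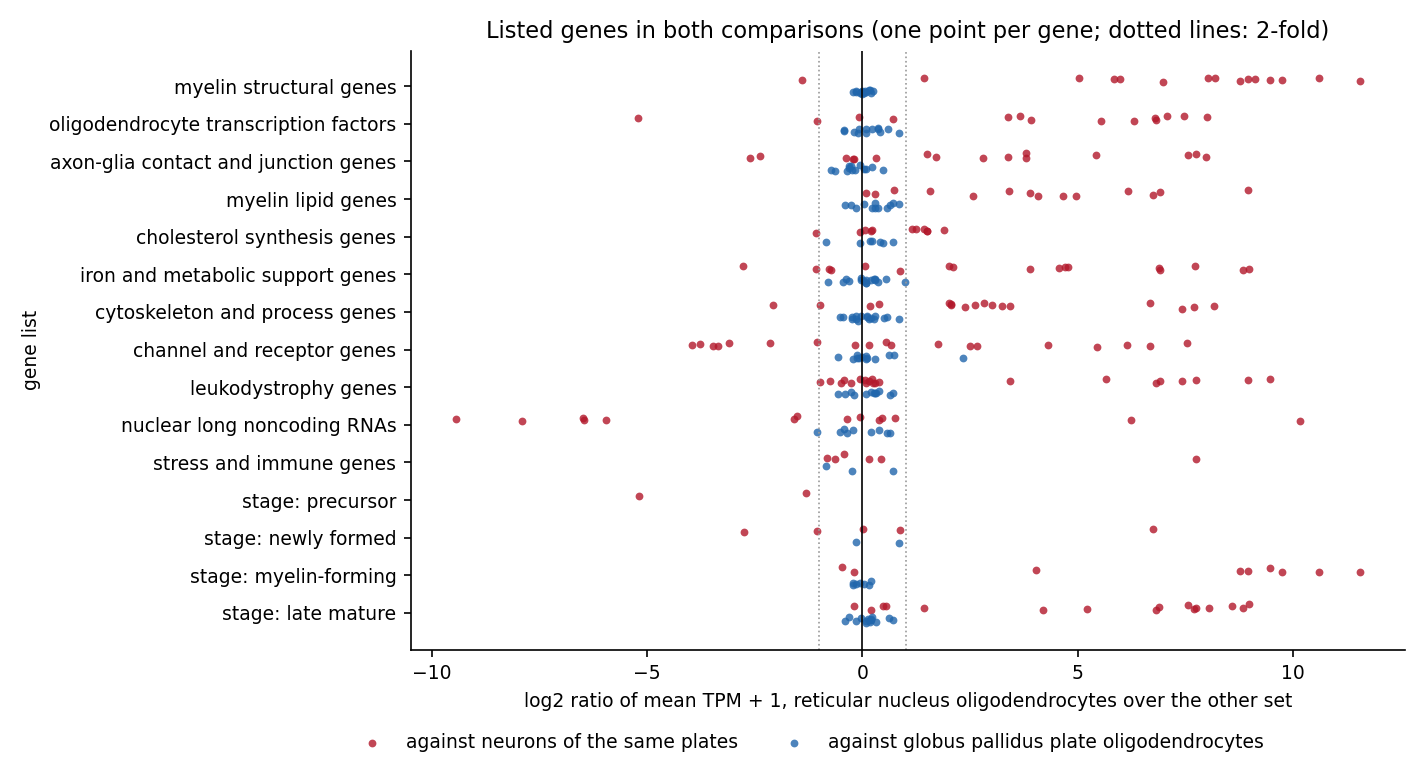
Log2 ratio of mean TPM plus 1 for genes of 15 lists that passed the filter against neurons (Klk6 did not), members over neurons of the same plates (red) and members over oligodendrocytes of the globus pallidus plates (blue), with 2-fold marked by dotted lines and genes listed at 0 in neurons, such as Opalin, placed by the 1 TPM added to each mean. Structural genes reach 11.55 against neurons, the value of Mog. Since Mog was at 0 in most neurons, that value rests largely on the added 1 TPM. The blue points lie between the dotted lines except for Grm7 (2.34) and Meg3 (-1.05).

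Few of the listed genes were past 2-fold between oligodendrocytes of the globus pallidus plates and those of the TRN. On the former, 83 nuclei on 3 plates met the rule (median 2145 detected genes), and 6.65% of 3777 genes were at least 2-fold higher in TRN members (about 250) and 5.11% at least 2-fold lower (about 190), with a median log2 ratio of -0.01. By the difference of mean log2 values these shares were 0.87% and 4.21%, and with 10 TPM in place of 1 TPM added to each mean they were 3.04% and 2.22%. Without the plate gpe_23, which holds 40 of the 83, these shares were 11.49% and 8.47%, and without gpe_25 the first was 10.01%. Without the X083116 plates the second was 9.30%. None of 14 structural, 12 lipid, 17 iron and metabolic or 18 cytoskeletal genes tested was past 2-fold, and list medians were 0.01, 0.29, 0.08 and 0.11. Mbp had 12366 TPM there against 12918, and Trf 14816 against 15700.3. Of all listed genes tested, those past 2-fold were the glutamate receptor Grm7 (log2 ratio 2.34), Meg3 (-1.05) and Klk6 (-1.11), and among cell type markers the microglial Cx3cr1 (mean 4.42 against 1.05 TPM), none with separate plate means. Plate means did not overlap for 2 of the higher genes, Pgp (log2 ratio 1.67) and Six2 (1.11), and for 6 of the lower ones, Tmem206 (-2.46), Gdpd5 (-1.73), Ndufa2 (-1.32), Minos1 (-1.27), Tnrc6b (-1.15) and Ndufa3 (-1.10).

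Glul, the glutamine synthetase gene, was the third gene with separate plate means on the higher side. The mean of Glul was 906.7 TPM in TRN members (SD 960.5, found in 91.8%), with plate means of 599.7 at the lowest, 901.7 at the median and 1385 at the highest, and 455.5 TPM in the globus pallidus set with plate means of 420.8 to 500.7. The log2 ratio of 0.99 lay just under 2-fold. On the lower side with smaller ratios stood Tmsb4x (-0.99), Zcchc24 (-0.94), Rpsa (-0.87), Tmcc3 (-0.74), Kif21a (-0.61) and Atp9a (-0.53). Klk6 had 382.8 TPM in members and 825.2 in the globus pallidus set, but its plate means there ran from 182.6 to 1926 and took in the whole TRN range of 195.6 to 708.3. Differences of this kind between 12 and 3 plates, with no animal named, cannot be told apart from differences between preparations.

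Members on the 4 X083116 plates differed from those on the others. Of 3682 genes, 10.2% were at least 2-fold higher there (about 380) and 6.03% at least 2-fold lower (about 220), with a median of 0.11 over all genes, and plate means did not overlap for 42 and 12 of them (4 against 8 plates). By the difference of mean log2 values the shares were 3.99% and 9.02%, and with 10 TPM added to each mean 5.73% and 3.45%. Ttr, transthyretin, known as the main product of the choroid plexus, was above 0 in 51.8% of members on the X083116 plates, with a mean of 767.3 TPM and plate means of 346.7 to 1473, and at 0 in all members of the others. Neurons showed the same division, with Ttr above 0 in 68.1% (32 of 47) on the X083116 plates and in 0.926% on the others. Ttr thus followed the plates in both cell types. Among other genes higher on the X083116 plates, with log2 ratios, were Tmem8b (3.55), Tnk2 (3.39), Xrcc2 (2.57), Atp11b (2.50), Hr (2.35), Urm1 (2.34), Cecr2 (2.23), Paxip1 (2.21) and Tef (1.85). Genes lower there were Rpl37a (-3.57), Phlda3 (-2.48), Ubqln1 (-2.31), Map7d2 (-2.21), Zbtb44 (-1.89), Adipor2 (-1.73), Ephb1 (-1.53), Tmem135 (-1.50), Srsf3 (-1.49), Tmem9b (-1.30), Rac1 (-1.05) and Lamp1 (-1.04). Lamp1, a lysosomal membrane protein, had plate means of 330.01 to 702.2 TPM on the X083116 plates and of 989.99 to 1458 on the others.

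Some of the oligodendrocyte lists had single genes past 2-fold between these plates and others none. The shares over all 3682 genes were 10.2% higher and 6.03% lower, so in lists this small that contrast does not set lists apart. None of 14 structural, 13 contact and junction or 16 late mature genes was past 2-fold, but the list medians of the structural (-0.26) and late mature genes (-0.52) lay further from 0 than the 0.11 of all genes. One gene was past 2-fold lower among 14 transcription factors, 12 lipid, 8 cholesterol, 16 iron and metabolic and 12 leukodystrophy genes each, with list medians from -0.20 to -0.02. Among 18 cytoskeletal genes 1 was past 2-fold higher (median 0.04), and among 13 channels and receptors 2 (median 0.06). Of 5 stress and immune genes, 2 were past 2-fold lower (median -0.72). Apod had plate means of 1769.9 to 3107 TPM on the X083116 plates and 2871 to 5069 on the others, so the ranges overlapped. Rn45s had a mean of 82173 TPM in members on the X083116 plates and 53032 TPM on the others, and 94742 against 79134 TPM in neurons. The highest plate mean of Rn45s, 113997 TPM, was on X012116_TRNp5, which is not one of the X083116 plates. Its part in the lower values of other genes was not tested.

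**Figure D5:**
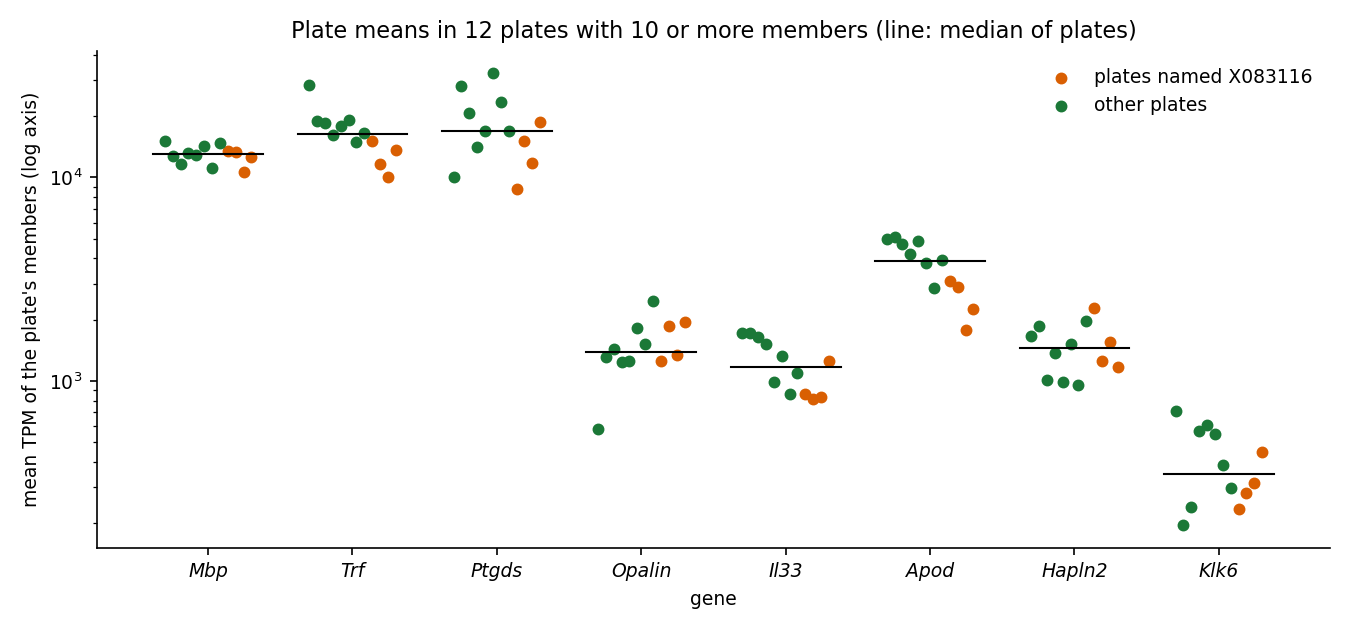
Mean TPM of 8 genes on each of the 12 plates with 10 or more members, on a log axis (points: plates, lines: medians of plates, orange: plates named X083116). Mbp stays within 10622 to 15018 TPM, Ptgds spans 8762 to 32422, and Apod and Trf are mostly lower on the orange plates, with overlap for both.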

How the data were processed

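RNA of single sorted nuclei was measured, and the labels' plate type gave each sample its group. As the values show, the authors deposited the TRN table on a natural log scale, log(1 + s × TPM) with s between 0.288 and 6.03 in a nucleus. Undoing the log and scaling each nucleus to 1000000 gave TPM back. Per the submitters' processing notes, RSEM, Bowtie, TopHat2 2.0.10 and Seurat 2.2.0 were used with mm10. TPM hold no read counts, so detected genes are given in place of depth, and reads of near-identical genes may be split between them.

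Work was done in Python 3.11.15 with numpy 2.4.6, pandas 2.3.3, scipy 1.17.1 and matplotlib 3.10.9. The members and gene lists were chosen with earlier results of these data known. Genes were named by rule: markers, the 4 highest of each list and its members at 0, the 15 highest medians, the 15 most variable, 8 at each end of the coefficient of variation, and in each comparison the 12 largest ratios each way with separate plate means. Genes ranked by Ptgds, and single genes beside them, were chosen after values were seen. Listed symbols absent from the table were left out. Comparisons and correlations were tested on simulated data. The closing section gives the alternatives tried. Some genes that these rules name are not reported here.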

Additional observations from a re-analysis of the deposited data

Results flagged for a closer look

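Nuclei outside the class met the same rule in data that the comparisons did not use. Among about 750 nuclei sorted with NeuN, 5 had at least 4 of the 6 rule genes and fewer than 3000 detected genes, or 0.664% (exact 95% binomial interval 0.216% to 1.54%, counting error only). On the plate whose name holds ThrP26, labelled TRN adjacent, 7 of 50 nuclei did, or 14% (interval 5.82% to 26.7%). Both were noted because the rule was set for nuclei sorted without NeuN on TRN plates, and neither set entered any value above.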

How the results depend on the processing

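Each value was recomputed with other rules for members, filters, scalings and pseudocounts and with each plate left out. The coefficients of the 11 gene pairs kept within 1 SD of plates under each alternative run. Counts of genes are given as shares of the genes tested. Against neurons, 48.51% of genes were past 2-fold (10.99% higher, 37.52% lower). The shares were 53.07%, 11.14% and 41.93% among genes found in at least 50% of nuclei, 36.59%, 10.95% and 25.64% with no filter, and 6.22% higher and 62.72% lower by the difference of mean log2 values. Against the globus pallidus plates, 11.76% were past 2-fold. A pseudocount of 10 TPM gave 5.27% (3.04% higher, 2.22% lower), a filter at 10% of nuclei 17.60% (10.34%, 7.26%), at 50% 5.57% (3.38%, 2.19%), and none 23.33% (15.37%, 7.96%). The difference of mean log2 values gave 5.08%, with 0.87% higher. Leaving out single plates gave 11.50% to 19.96% in all, 6.10% to 11.49% higher and 5.01% to 8.47% lower, the highest each time without gpe_23. Without the X083116 plates, an alternative chosen after seeing the data, 9.30% were lower. Between X083116 and other plates, 16.24% were past 2-fold, against 9.18% (5.73%, 3.45%) with 10 TPM, 21.89% (13.35%, 8.54%) at 10%, 10.29% (7.27%, 3.03%) at 50%, 23.98% (13.36%, 10.61%) with no filter, and 3.99% higher by mean log2. These filters change which genes are tested; otherwise the cause was not tested. The structural sum was 73216 in the deposited scaling, and the neuronal markers' median was 3.51 TPM. No paired analysis was possible because the results come from no test and replicate numbers follow accession order. Depth is unknown.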
